A study of Mus musculus with 4 samples.

Results

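Genes of 34 secreted plasma proteins, of the kind the adult liver makes, were read on Illumina bead arrays of mouse yolk sac. They were taken by name from the platform annotation: every probe whose gene symbol was one of the 34 was used, whatever its signal. The array held 54 such probes for 31 of the 34 genes, among 45281 probes in all. For 26 of the 31 genes a probe stood above background on at least 2 of the 4 arrays, and these entered the test with 10603 genes in all. The members were 7 carriers, 11 fibrinogen chains and clotting factors, 5 anticoagulants, 8 protease inhibitors and 3 complement components.

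There were 2 arrays labelled ETV2 CKO, from Flk1Cre;ETV2 CKO embryos, and 2 labelled control, all of total RNA from C57BL/6 yolk sacs at embryonic day 9.5. In the first group, per the labels, loxP-Cre recombination inactivated ETV2 in FLK1+ cells. Flk1 is an older name of the endothelial receptor gene Kdr, and Etv2 encodes a transcription factor that blood and vessel precursors need. The labels do not give the alleles of the control embryos, nor whether a sample was 1 yolk sac or a pool, so the p-values measure the spread between these samples only. The yolk sac also holds blood, vessels and mesothelium, and fewer cells of a type cannot be told apart from less RNA per cell in such whole tissue.

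In the embryo the visceral endoderm of the yolk sac makes plasma proteins before the liver takes over. It secretes carriers such as alpha-fetoprotein and transferrin, zymogens of the clotting cascade, and the serpins and other inhibitors that hold proteases in check. Most of these proteins enter the secretory pathway with a signal peptide, and several clotting proteins need a vitamin K-dependent carboxylation before release. In liver their genes are known targets of the HNF1, HNF4, FOXA and C/EBP transcription factors.

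The arrays had between 17934 and 18798 probes above background, that is, with a detection p under 0.05 (a p-value that sets a signal against those of control beads with no target). Values below are normalized signals on the log2 scale, and a difference is ETV2 CKO minus control with its standard error and n = 2 per group. Signals of different genes come from different probes and are not set against each other. The Etv2 probe read 6.83 and 6.80 on the arrays labelled ETV2 CKO, against 6.29 and 6.43 on the control arrays. It was higher by 0.46 ± 0.10 (limma, adjusted p = 0.0199), which goes against the label. Where that probe lies relative to the deleted part is not given, so it does not check the deletion, and every direction below is that of the arrays labelled ETV2 CKO. Leaving out ETV2 CKO replicate 1, ETV2 CKO replicate 2 or control replicate 1, or using the authors' processed values, ended this call, with adjusted p up to 0.0816. Xist read 7.78 and 7.75 on ETV2 CKO arrays, against 6.64 and 6.79 on control arrays, and was higher by 1.05 ± 0.10. The Y-linked Eif2s3y read 7.70 and 7.80 on ETV2 CKO arrays, against 8.39 and 8.57 on control arrays, and was lower by 0.73 ± 0.11. Both genes were above background on every array. Whether a sample held embryos of both sexes, and the part of embryo sex in the results, was not tested.

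Most of the plasma protein genes were read in these yolk sacs. Of the 31 genes with a named probe, 25 were above background on all 4 arrays, and hemopexin (Hpx) on both ETV2 CKO arrays and neither control array. The other 5 were not tested. Ahsg, the carrier and mineral-binding protein fetuin-A, was above background on ETV2 CKO replicate 1 alone (detection p between 0.0342 and 0.0630). Alb, Fgb, F12 and Apoh were above background on 0 of 4 arrays, and for F12 this held for each of 3 probes. Gc, A2m and C3 had no probe named for them here and are not described further. Among the 54 probes, 36 were above background on all 4 arrays, 6 on 1 to 3 arrays and 12 on none. At a detection p under 0.01 on at least 2 arrays, 23 of the 26 genes would have entered, without Hp, Hpx and C4b.

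Some of the genes at background are neighbours and partners of genes with strong signals. Alb, the gene of serum albumin, lies next to Afp in the RefSeq gene order. Its probe had normalized signals of 4.38 and 4.34 on ETV2 CKO arrays, against 4.51 and 4.40 on control arrays, with detection p of 0.455 or more, while Afp was above background on all 4 arrays. Fgb encodes the beta chain of fibrinogen, a protein built from alpha, beta and gamma chains whose genes (Fga, Fgb and Fgg) stand side by side. Its single probe had raw intensities of 111.5 and 113.8 on ETV2 CKO arrays, against 101.5 and 109.3 on control arrays, while Fga and Fgg were above background on all 4 arrays. A probe at background gave no signal above that of the control beads, and whether it can detect its transcript was not tested.

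The promoters of these 2 pairs are shown because one gene of each pair was read and its neighbour was not. The sequences are RefSeq's (GRCm38.p6), 250 bases before to 50 after the annotated start, 5′ to 3′ on the gene's strand. They stand at chr5:90490464-90490763, plus strand for Afp, chr5:90460620-90460919, plus strand for Alb, chr3:83025903-83026202, plus strand for Fga and chr3:83049814-83050113, minus strand for Fgb. Capitals mark a match, on either strand, to the HNF1 half-site GTTAAT, the C/EBP half-site TTGCG, the GATA site AGATAA or the TATA box TATAAA.
Afp: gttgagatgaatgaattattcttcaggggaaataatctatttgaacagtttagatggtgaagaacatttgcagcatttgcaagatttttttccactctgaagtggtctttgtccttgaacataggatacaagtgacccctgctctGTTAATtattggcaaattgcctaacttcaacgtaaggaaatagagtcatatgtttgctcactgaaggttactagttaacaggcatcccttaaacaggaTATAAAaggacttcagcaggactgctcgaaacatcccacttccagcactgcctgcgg
Alb: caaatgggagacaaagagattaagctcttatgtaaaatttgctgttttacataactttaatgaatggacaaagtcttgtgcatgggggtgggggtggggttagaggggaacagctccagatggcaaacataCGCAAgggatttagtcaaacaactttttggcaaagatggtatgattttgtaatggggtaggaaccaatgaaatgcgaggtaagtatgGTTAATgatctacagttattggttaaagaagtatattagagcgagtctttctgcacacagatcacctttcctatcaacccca
Fga: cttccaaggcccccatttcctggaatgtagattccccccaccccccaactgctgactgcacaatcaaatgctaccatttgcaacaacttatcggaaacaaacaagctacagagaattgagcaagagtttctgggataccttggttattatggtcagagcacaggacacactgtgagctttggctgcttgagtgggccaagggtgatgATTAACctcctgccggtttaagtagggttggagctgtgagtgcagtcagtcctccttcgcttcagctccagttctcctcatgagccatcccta
Fgb: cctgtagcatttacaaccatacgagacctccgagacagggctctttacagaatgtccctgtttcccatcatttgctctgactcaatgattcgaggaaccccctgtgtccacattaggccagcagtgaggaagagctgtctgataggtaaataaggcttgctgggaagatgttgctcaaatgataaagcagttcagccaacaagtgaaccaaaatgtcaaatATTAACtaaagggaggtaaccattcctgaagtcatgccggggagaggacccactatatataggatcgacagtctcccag

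All 4 of these windows hold the HNF1 half-site, those of the probes at background included. Of the 34 members, 25 had such a window, and 9 of the 25 (36%) held GTTAAT on either strand, against 7.10% of all 32851 windows. The 9 were those of Afp, Alb, Gc, Fga, Fgb, F2, F13b, Serpina1a and Itih1. None of the 4 genes with a window that were called in the comparison below (F10, Hpx, Ambp and Itih3) was among them. Among them were 6 of 14 tested genes that were not called and 3 of 7 untested genes. These counts are small, Hpx entered the test only through the ETV2 CKO arrays, and the called Kng1 and Serping1 had no window. Any link between the half-site and the calls was not tested. The C/EBP half-site TTGCG was in 24% of member windows, against 17.4% of all windows. The GATA site AGATAA stood in 12%, against 11.2%, and TATAAA in 12%, against 13.6%. The HNF4 site CAAAGTCCA and the full C/EBP site TTGCGCAA, which contains the half-site, were in 0 of 25 windows, against 0.475% and 0.183% of all windows. These are matches of letters only. Hp, C4b, Serping1, Proc, Trf, Cfb, Plg, A2m and Kng1 had no window.

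**Figure D1:**
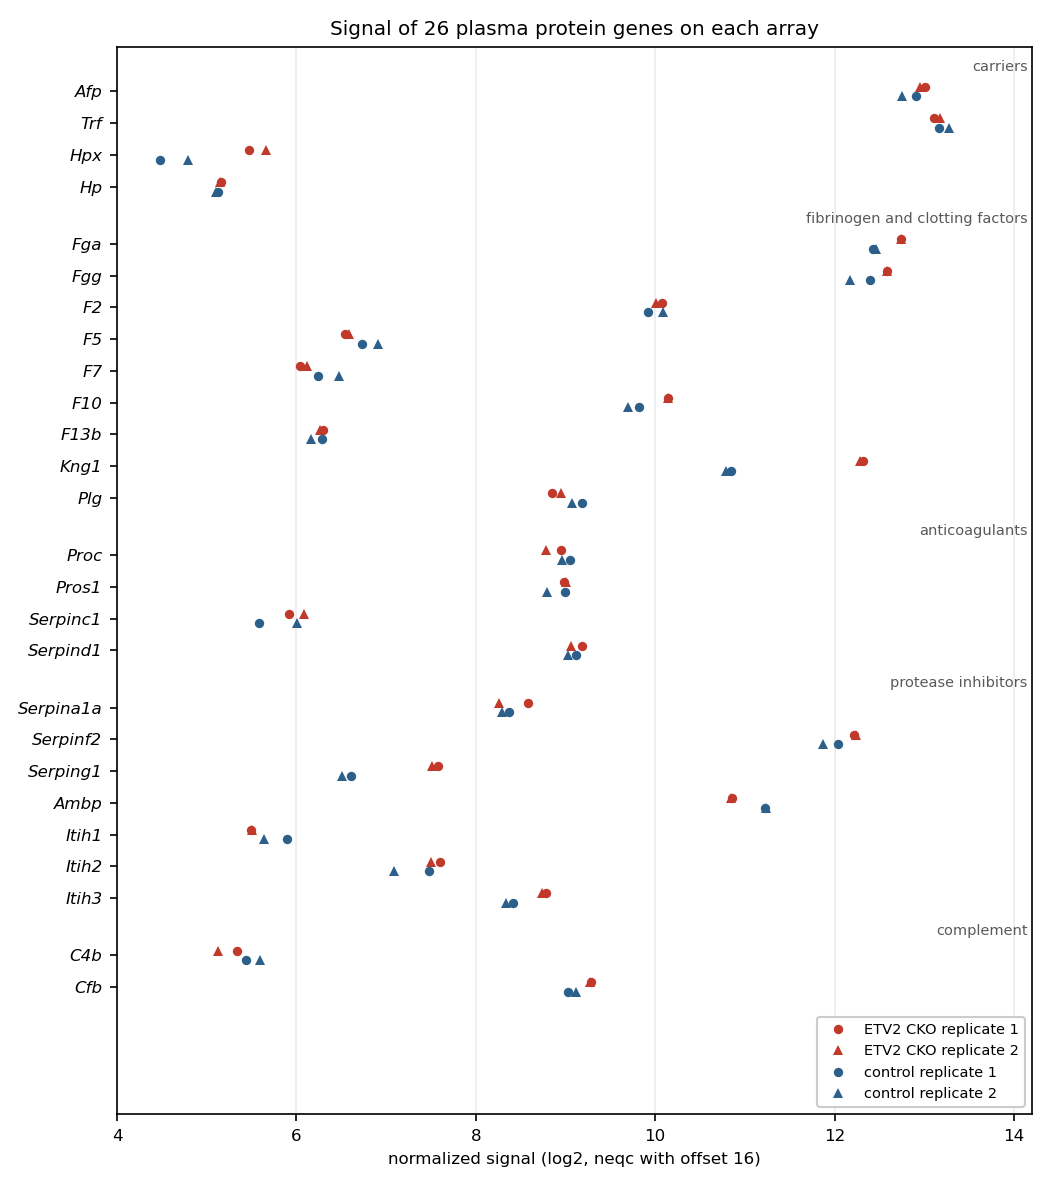
Normalized signal (log2, x axis) of the 26 tested genes on each array, by role, with red points for ETV2 CKO and blue points for control arrays and a circle or triangle for replicates 1 and 2. The groups lie far apart for Kng1 (12.32 and 12.29 against 10.84 and 10.79), and for most other genes they lie close together.

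Of the 25 genes above background on all 4 arrays, 4 were higher on the ETV2 CKO arrays, 1 was lower and 20 did not pass the test (limma, Benjamini-Hochberg over all 10603 genes, adjusted p under 0.05). The higher ones were Kng1, Serping1, Itih3 and F10, and the lower one was Ambp. Hpx was called higher too, which makes 5 of 26, but it entered the test only through its signal on the ETV2 CKO arrays, so it is kept out of these counts and given as a bound further on. Over all genes tested, 14.4% were higher and 10.8% lower, so that 20% of the 25 members and 25.2% of all genes passed in either direction. The share called is thus near the background. Leaving out any 1 of the 4 arrays left Kng1 and Serping1 higher among the 25 and 0 lower, and scaling arrays to their medians in place of quantile normalization left 0 lower. That scaling also moved the split over all genes, of whose calls 57.2% were higher with quantile normalization and 70.3% with median scaling.

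Differences were mostly small. The median over these 25 genes was 0.10, beside 0.02 over all genes, and the median absolute difference was 0.25, beside 0.21. Of the 25, 17 (68%) were above 0, against 52.8% of all genes. The groups did not overlap for 18 of 25 (72%), against 65.4% of all genes. An unadjusted p under 0.05 was reached by 11 of them (44%), against 39.0% of all genes. The 20 genes that did not pass had differences between -0.29 and 0.30, and their 95% intervals ran from -0.57 to 0.61 at the widest.

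**Figure D2:**
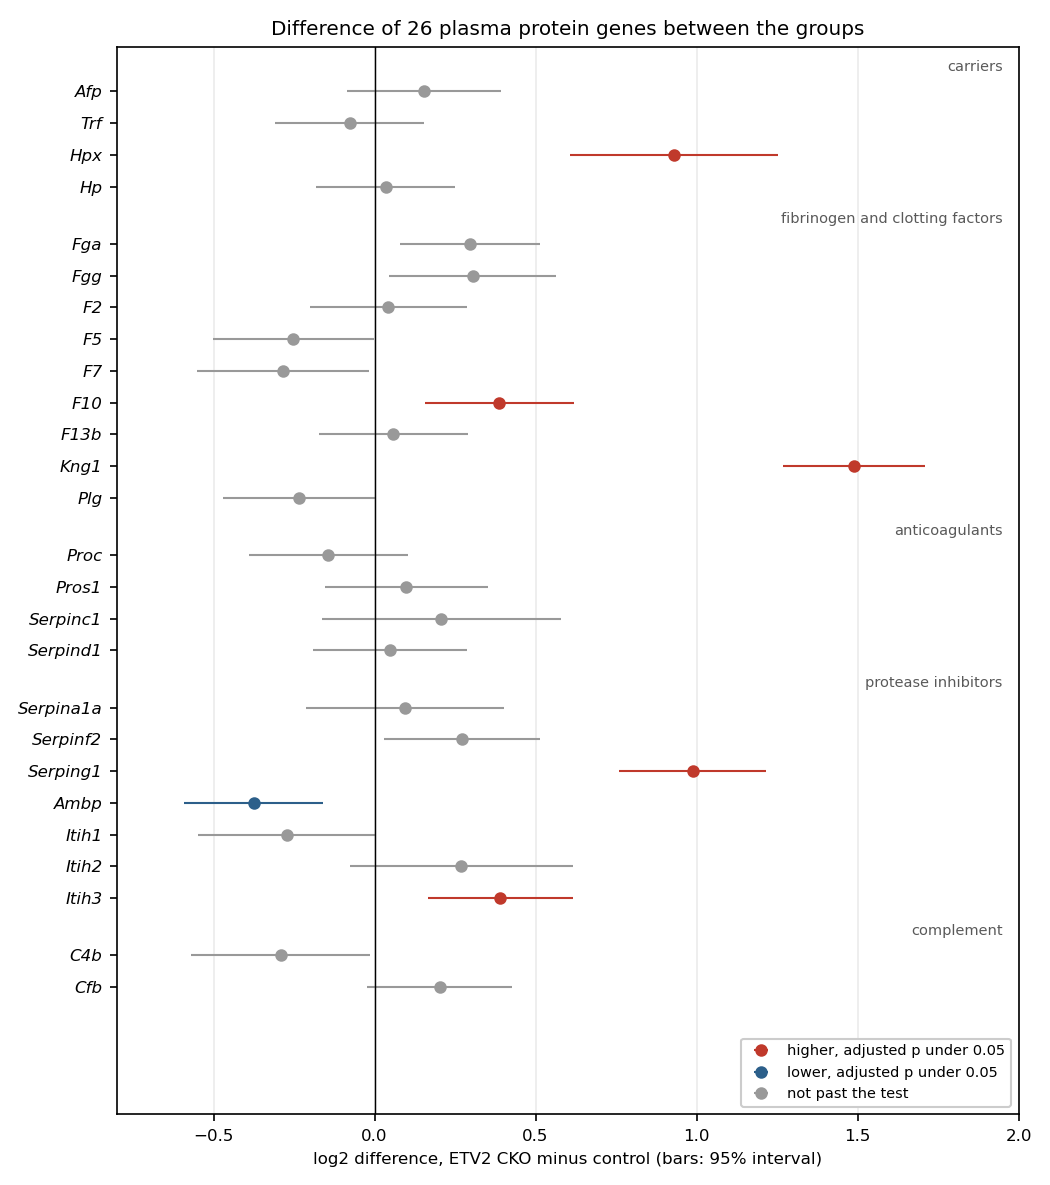
Log2 difference, ETV2 CKO minus control, of the 26 tested genes (x axis) with 95% intervals of the limma fit, grouped by role. Kng1 stands at 1.49, the next, Serping1, at 0.99, and 20 genes have differences between -0.29 and 0.30 that did not pass the test.

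Among the carriers, none of the 3 genes above background on all 4 arrays passed, and 0 of them had an unadjusted p under 0.05 (limma). Afp, the main fetal plasma protein, read 13.01 and 12.96 on ETV2 CKO arrays, against 12.90 and 12.76 on control arrays. Both ETV2 CKO arrays were above both control arrays, but by 0.15 ± 0.10 (95% interval -0.09 to 0.39, limma adjusted p = 0.299). Trf, which carries iron to cells, read 13.11 and 13.17 on ETV2 CKO arrays, against 13.16 and 13.28 on control arrays. These groups overlapped, with a difference of -0.08 ± 0.10 (95% interval -0.31 to 0.15, adjusted p = 0.597). Hp, whose product binds free haemoglobin, was close to background on every array (detection p between 0.0331 and 0.0481 for 1 of its 3 probes, the other probes not above background) and differed by 0.03 ± 0.09.

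Hpx encodes hemopexin, which binds free heme. It read 5.47 and 5.66 on ETV2 CKO arrays, against 4.48 and 4.79 on control arrays. The probe was above background on both ETV2 CKO arrays and on neither control array, so that the difference is given only as a bound, at least 1.39-fold higher (limma adjusted p = 0.0057). As its entry into the test rested on the ETV2 CKO arrays, that p is no independent support. Its other probe was above background on 1 ETV2 CKO array and no control array. Without background correction the Hpx difference was 0.32, and on the authors' processed values it was 0.15, with an adjusted p of 0.051 that ended the call.

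Among fibrinogen and the clotting factors, 2 of 9 tested genes were higher (22.2%, against 14.4% of all genes) and 7 did not pass. Kng1 encodes kininogen, the cofactor of contact activation from which plasma kallikrein cuts bradykinin. It read 12.32 and 12.29 on ETV2 CKO arrays, against 10.84 and 10.79 on control arrays. Each ETV2 CKO array stood well above each control array, a difference of 1.49 ± 0.09 or 2.81-fold (95% interval 1.27 to 1.71, limma adjusted p = 0.000507). A second Kng1 probe read 10.86 and 10.80 on ETV2 CKO arrays, against 9.21 and 9.31 on control arrays, and the remaining one was above background on 1 ETV2 CKO array only. Kng1 was the 1 member that changed by 2-fold or more and passed the test.

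The neighbours of Kng1 in the gene order were in part higher, in part not called and in part not tested. Kng2, a closely similar kininogen gene next to it, was higher by 1.15 ± 0.15 (limma adjusted p = 0.00441). Whether the probes separate the 2 transcripts was not tested. Beyond Kng2 lie Hrg, Fetub and Ahsg, which code for related cystatin-domain proteins. None of those 3 was above background on 2 arrays, so whether they changed was not tested. On the other side Eif4a2, a translation initiation factor gene, was higher by 0.47 ± 0.12. Beyond it Rfc4 and St6gal1 differed by -0.08 and 0.02 and did not pass. The zymogens of the contact system, F12, F11 and Klkb1, were above background on 0 of 4 arrays.

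F10, the factor whose active form cuts prothrombin, also rose. It read 10.15 and 10.14 on ETV2 CKO arrays, against 9.82 and 9.69 on control arrays, a difference of 0.39 ± 0.10 (95% interval 0.16 to 0.62, limma adjusted p = 0.031). Leaving out any 1 array ended the call, with adjusted p up to 0.124. F7, which starts the tissue factor pathway and is F10's neighbour in the gene order, read 6.04 and 6.11 on ETV2 CKO arrays, against 6.25 and 6.47 on control arrays. Its difference of -0.28 ± 0.11 did not pass (adjusted p = 0.110), and the difference between F10 and F7 was not tested. Proz, the gene on the other side of F10, differed by 0.29 ± 0.10 and did not pass either.

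The fibrinogen chain genes Fga and Fgg read higher on the ETV2 CKO than on the control arrays without passing the test, and Fgb was at background. Fga read 12.74 and 12.74 on ETV2 CKO arrays, against 12.42 and 12.46 on control arrays. On this probe, the brightest, the difference was 0.30 ± 0.09 (95% interval 0.08 to 0.51, limma adjusted p = 0.0554). A second Fga probe read 12.61 and 12.62 on ETV2 CKO arrays, against 12.175 and 12.094 on control arrays (0.48 ± 0.10). Averaging the probes gave 0.39 for Fga and passed the threshold (limma adjusted p = 0.0221). Fgg read 12.59 and 12.58 on ETV2 CKO arrays, against 12.39 and 12.17 on control arrays, a difference of 0.30 ± 0.11 (95% interval 0.05 to 0.56, adjusted p = 0.0845). Neither gene's groups overlapped. Of the 13 alternative settings, 6 put Fga past the threshold and 5 put Fgg past it.

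For the other clotting genes no change passed. F2, which encodes prothrombin, read 10.08 and 10.01 on ETV2 CKO arrays, against 9.92 and 10.08 on control arrays, and these groups overlapped. F13b, the carrier subunit of the fibrin-crosslinking factor, differed by 0.06 ± 0.10. F5, the cofactor of factor X, differed by -0.25 ± 0.10 with an adjusted p of 0.124 (limma), and its other probe by -0.47. Plg encodes plasminogen, the zymogen of the fibrin-cleaving protease. It read 8.84 and 8.95 on ETV2 CKO arrays, against 9.18 and 9.08 on control arrays, a difference of -0.23 ± 0.10 (adjusted p = 0.132) with 2 further probes at -0.10 and -0.37.

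None of the 4 tested anticoagulant genes passed, and 0 had an unadjusted p under 0.05 (limma). Proc, the zymogen of activated protein C, differed by -0.14, and Pros1, its cofactor protein S, by 0.10 ± 0.11. Serpinc1, which encodes antithrombin, read 5.92 and 6.09 on ETV2 CKO arrays, against 5.59 and 6.01 on control arrays. Its groups overlapped and its difference was 0.21 ± 0.15. Serpind1, which encodes heparin cofactor II, differed by 0.05. Their adjusted p-values lay between 0.348 and 0.765 (limma). The groups overlapped for 3 of the 4 and did not for 1 (25%), against 65.4% of all genes without overlap.

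Of the 7 tested protease inhibitors, 2 were higher (28.6%), 1 was lower (14.3%) and 4 did not pass. Over all genes 14.4% were higher and 10.8% lower, and counts out of 7 are small. Serping1 encodes C1 inhibitor, the serpin that blocks the first complement proteases, plasma kallikrein and activated factor XII. It read 7.58 and 7.51 on ETV2 CKO arrays, against 6.61 and 6.51 on control arrays, a difference of 0.99 ± 0.10 or 1.98-fold (95% interval 0.76 to 1.22, limma adjusted p = 0.002). A second Serping1 probe read 7.38 and 7.36 on ETV2 CKO arrays, against 6.03 and 6.16 on control arrays. Both probes thus separated the groups. On the authors' processed values the difference was 0.36, still past the threshold.

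The inter-alpha-inhibitor family split by member. Ambp encodes the precursor of bikunin, the protease-inhibiting light chain, and of alpha-1-microglobulin. It read 10.85 and 10.85 on ETV2 CKO arrays, against 11.22 and 11.23 on control arrays, a fall by 0.38 ± 0.09 (95% interval -0.59 to -0.16, limma adjusted p = 0.0272). Itih3, a heavy chain that is joined to bikunin, read 8.79 and 8.74 on ETV2 CKO arrays, against 8.41 and 8.33 on control arrays. It rose by 0.39 ± 0.09 (adjusted p = 0.0273) on the probe that stood for it, while its other probe differed by -0.17. The heavy chains Itih1 and Itih2 differed by -0.27 ± 0.11 and 0.27 ± 0.14 and did not pass. Leaving out any 1 array ended the calls of Ambp and Itih3 (adjusted p up to 0.105 and 0.512 over all settings), as did median scaling for Ambp and averaging the probes for Itih3.

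Serpinf2, which encodes the plasmin inhibitor alpha-2-antiplasmin, read 12.22 and 12.23 on ETV2 CKO arrays, against 12.04 and 11.87 on control arrays. Its groups did not overlap, but the difference of 0.27 ± 0.10 did not pass (limma adjusted p = 0.0948). Serpina1a, an alpha-1-antitrypsin gene and the elastase inhibitor of plasma, differed by 0.10 ± 0.13 on 1 probe and by -0.20 on another. It has near-identical copies in a cluster, so signal cannot be given to 1 copy with certainty. Of these, Serpina1b, Serpina1c and Serpina1d differed by -0.11, -0.30 and -0.19 and did not pass, and Serpina1e was at background.

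Neither tested complement gene passed, and 1, C4b, had an unadjusted p under 0.05 (limma). C4b, the source of the C4b fragment of the classical convertase, read 5.33 and 5.12 on ETV2 CKO arrays, against 5.44 and 5.60 on control arrays, for 1 of 3 probes that was above background (-0.29 ± 0.12). C4a is a near-identical copy of it. Cfb, the protease of the alternative pathway convertase, read 9.28 and 9.27 on ETV2 CKO arrays, against 9.03 and 9.12 on control arrays (0.20 ± 0.09, limma adjusted p = 0.162). C2, the counterpart of Cfb in the classical pathway and its neighbour in the gene order, was lower by 0.43 ± 0.10 (adjusted p = 0.0244).

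**Figure D3:**
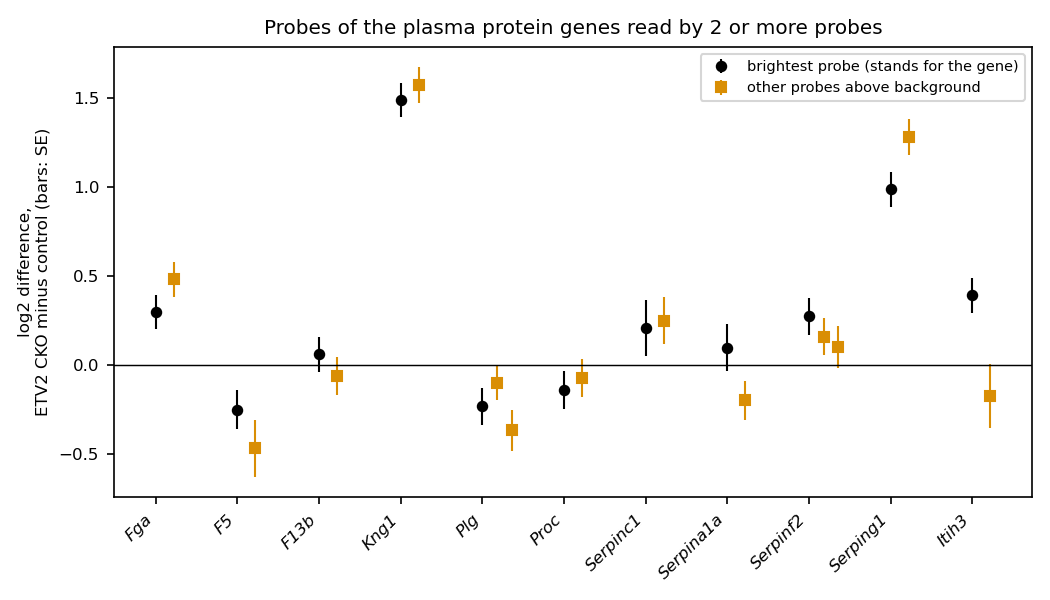
Log2 difference, ETV2 CKO minus control, with its standard error (y axis) of every probe above background on at least 2 arrays, for the members with 2 or more such probes. Black circles mark the brightest probe, which stood for the gene, and orange squares the others; both Kng1 and both Serping1 probes lie above 0.9, and the 2 Itih3 probes lie on opposite sides of 0.

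Where a member had several probes, they mostly agreed in sign. Of 11 members with 2 or more probes above background on at least 2 arrays, 8 had the same sign on all of them. The 3 with opposite signs were F13b, Serpina1a and Itih3, and of these only Itih3 had been called. Summed over the 26 probes on the linear scale, the signal was 47983 and 47708 on ETV2 CKO arrays, against 41681 and 40442 on control arrays, a ratio of 1.17. Without Kng1 the sums were 42881 and 42732 on ETV2 CKO arrays, against 39862 and 38693 on control arrays, a ratio of 1.09. Without the 5 brightest (Afp, Fga, Fgg, Serpinf2 and Trf) they were 13184 and 12834 on ETV2 CKO arrays, against 9877 and 9676 on control arrays, a ratio of 1.33 with Kng1 still in the sum. For fibrinogen and the clotting factors the sums were 20878 and 20709 on ETV2 CKO arrays, against 15264 and 14600 on control arrays. Carriers summed to 17131 and 17195 on ETV2 CKO arrays, against 16816 and 16851 on control arrays. The ratios of the sums were 1.39 for fibrinogen and the clotting factors, 1.02 for carriers, 1.01 for anticoagulants, 1.07 for protease inhibitors and 1.13 for complement. The first of these has Kng1 in its sum. Of its 9 genes 7 did not pass, and their median log2 difference, with Kng1 and F10 included, was 0.06.

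Other plasma protein genes moved in both directions. Of 41 tested, 10 were higher (24.4%), 8 were lower (19.5%) and 23 did not pass, with a median of -0.01. Over all genes 14.4% were higher and 10.8% lower. Cpn2 and Saa3 among the 10, and Mst1 among the 8, were above background only in the group where they were higher. Their calls are thus no independent support. Vtn, which encodes the adhesion protein vitronectin, was higher by 3.16 ± 0.11. C9, a pore-forming complement protein, was higher by 1.25, and Hamp, the iron hormone hepcidin, by 1.22. Serpina10, the inhibitor of activated factor X that works with protein Z, was higher by 0.97, and Igfbp1, a carrier of insulin-like growth factors, by 0.92. Mbl1, Hgfac, Saa1 and Cfi were lower by 0.91, 0.81, 0.72 and 0.71, and these 4 were picked with their values in view. A further 24 were at background on every array, the clotting factor gene F9 and the acute phase genes Orm1 and Orm2 among them.

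Genes that process or receive plasma proteins were counted in the same way. Of 21 vitamin K cycle, processing and cargo receptor genes, 3 were higher and 0 lower. These were Fkbp14, a prolyl isomerase of the endoplasmic reticulum (0.70), the COPII coat gene Sec24c (0.37) and the tyrosine sulfation enzyme gene Tpst1 (0.36). The carboxylase gene Ggcx (-0.04) and the vitamin K reductase gene Vkorc1 (0.26) did not pass. Of 26 receptor genes, 9 were higher and 4 lower. Tyro3, 1 of those 9, entered the test through the ETV2 CKO arrays alone. Tfrc, the receptor for Trf and a gene of red cell precursors, was lower by 1.71 ± 0.09. The complement regulator genes moved in opposite directions, Cd59a and Cr1l lower by 1.20 and 0.48 and Cd55 higher by 0.60. Tyro3 and Axl, receptors of protein S and its relative Gas6, were higher, Tyro3 by at least 1.82-fold and Axl by 0.84, and the thrombin receptor family gene F2rl2 was higher by 0.57.

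Of 22 endoderm and liver transcription factor genes, 8 were higher, 2 were lower and 12 did not pass. Foxa1, a pioneer factor of endoderm, was higher by 1.51. Sox17, Dbp, Tef, Gata6 and Tcf7l2 were higher by 0.79, 0.78, 0.78, 0.75 and 0.75. The 2 lower ones were Nr1h4 (-0.46) and the C/EBP family gene Cebpb (-0.41). Hnf4a (-0.13), Foxa2 (0.07) and Gata4 (0.03) did not pass. Of 12 acute phase signalling genes, 2 were higher, Hamp again and Jak1 (0.33). The 1 lower was the oncostatin M receptor gene Osmr, by at least 1.42-fold, which entered the test through the control arrays alone. Il6, Il6ra and Il1b were at background on every array, and Stat3 differed by -0.02.

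**Figure D4:**
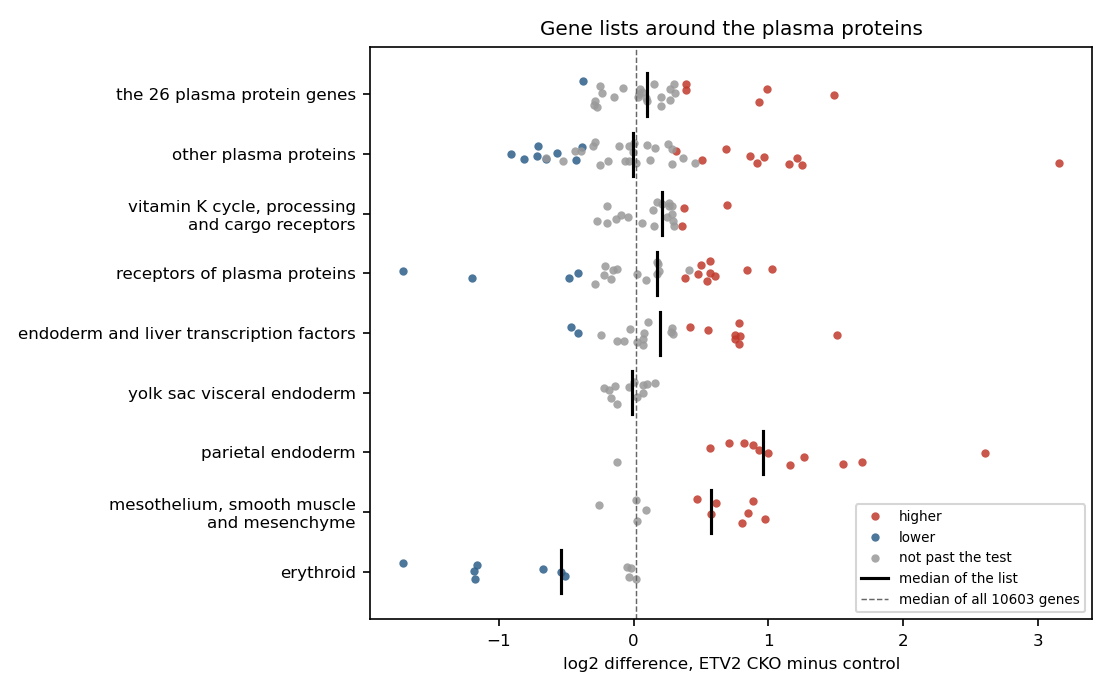
Log2 difference, ETV2 CKO minus control (x axis), of each tested gene in the plasma protein genes and 8 other lists (rows), coloured by call, with the median of each list as a black bar and that of all genes as a dashed line; points are spread vertically at random to part them. None of the 12 visceral endoderm markers is called, 11 of 12 parietal endoderm markers are higher, and the medians of the 26 plasma protein genes and of all genes are 0.10 and 0.02.

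Markers of the yolk sac's cell types moved unequally. All 12 named visceral endoderm markers, Ttr and Apoa1 among them, were above background on all 4 arrays and none passed the test. Their signals summed to 111873 and 109229 on ETV2 CKO arrays, against 114567 and 115168 on control arrays. Ttr (14.22 to 14.31) and Apoa1 (14.24 to 14.27) lay near the top of the array's range, which limits what they and the sum can show. Of those 12, 1 had an unadjusted p under 0.05 (limma). Of 12 named liver enzyme genes, 8 were at background on every array, Cps1, Tat and Pck1 among them. Arg1 and Fah were higher by 1.12 and 0.57.

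Other markers differed beside the calls above. Of 12 parietal endoderm markers, 11 were higher, with sums of 32125 and 32865 on ETV2 CKO arrays, against 18651 and 18520 on control arrays. Fst, 1 of those 11, entered the test through the ETV2 CKO arrays alone. Trophoblast and decidua markers summed to 2157 and 2386 on ETV2 CKO arrays, against 736 and 717 on control arrays. Among them 5 of 7 were higher and 2 lower, with Tpbpa at background. Prl8a2, 1 of those 5, entered the test through the ETV2 CKO arrays alone. Mesothelium, smooth muscle and mesenchyme markers summed to 31031 and 31539 on ETV2 CKO arrays, against 24998 and 24645 on control arrays, with 7 of 11 higher and Msln and Postn at background. Of 11 erythroid markers 7 were lower. Those 7 summed to 10988 and 10670 on ETV2 CKO arrays, against 18859 and 17978 on control arrays. The other 4 are globin genes, which lay near the top of the array's range and did not pass, and with them the sums were 99196 and 99425 on ETV2 CKO arrays, against 108124 and 108056 on control arrays. Macrophage markers summed to 1497 and 1573 on ETV2 CKO arrays, against 1801 and 1949 on control arrays, with 3 of 8 higher, 2 lower and Cd14 and Ptprc at background. Endothelial markers summed to 8321 and 8626 on ETV2 CKO arrays, against 8917 and 8908 on control arrays, with 2 of 11 higher, 4 lower and Kdr at background, and of 7 megakaryocyte markers 1 was higher. Some parietal endoderm, trophoblast, mesenchyme, erythroid, macrophage and endothelial markers thus differed on the same arrays as Kng1, Serping1, Hpx, F10, Itih3 and Ambp. The part of any of these cell types in those results was not tested.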

How the data were processed

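For every probe and array, 1 table has a raw intensity on a linear scale, as the authors deposited it without normalization, and the detection p-value deposited in the column to its right. Another has the authors' processed intensity values, made in steps unknown here, and served as an alternative only. The submitters' processing notes list lumi 2.15.1, with no role given. RNA was labelled as biotinylated cRNA, per the labels' protocols.

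Signals were processed with neqc of limma 3.58.1 in R 4.3.3: background from the detection p-values, offset 16, quantile normalization, and log2 of the deposited values. Genes needed a probe with detection p under 0.05 on at least 2 of 4 arrays, and the probe with the highest mean stood for its gene. Of 45281 probes, 34885 carried 1 gene symbol, 18 several and 10378 none. Group was the only term of the 2-sided test (lmFit and eBayes), and p-values were adjusted by Benjamini-Hochberg across the 10603 genes, with 0.05 as the threshold, on 6.54 degrees of freedom. An exact permutation test of 2 against 2 arrays cannot go below p = 0.333. A gene at background in 1 whole group entered the test through the other group alone, so its call is no independent support. It has a bound: the bright group's mean against, per dim array, the higher of the lowest signal above background and the probe's own. The number of arrays limits the precision.

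The rule for named genes was all 34 members, Etv2, up to 6 members of largest absolute change past the threshold from each other pathway list, and markers that moved or stood at background. Genes named as not passing or at background, and Cpn2, Saa3, Mst1, Cr1l, Nr1h4 and Cebpb, were chosen after their values were seen. The members and lists were chosen with earlier results of these data known. Promoter windows and gene order came from RefSeq tables of GRCm38.p6. Probes are given no coordinates, since no build is stated for the array's annotation. Normalization, offset, filters, probe choice, the fit's options, the replicate block and each array left out were varied.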

Additional observations from a re-analysis of the deposited data

How the results depend on the processing

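Each count was recomputed under 13 alternatives. The main counts were 1527 genes higher and 1144 lower over the array, and 5 members higher and 1 lower. Hpx, kept out of the counts above, is 1 of these 5. It is also among the members higher in the alternatives, except with the authors' processed values and with the filter at 0.01. Without background correction 8 members were higher and 2 lower, with 1986 genes higher and 1600 lower over the array. With an offset of 50, 8 members were higher and 1 lower, with 1919 and 1475 genes over the array. Trend and robust options also gave 8 and 1 members, with 2034 and 1640 genes over the array. Calls over the whole array thus rose in these settings too. Median scaling gave 1535 genes higher and 649 lower over the array, and 5 members higher and 0 lower. The authors' processed values gave 7 members higher and 2 lower, with 1679 and 1400 genes over the array. A detection p under 0.01 on all 4 arrays left 21 members, 6 higher and 1 lower, with 1620 and 1325 of 8633 genes over the array. Leaving out each array in turn gave 751 to 1013 genes higher and 545 to 671 lower over the array, with 3 members higher and 0 lower each time, on fewer arrays. With the replicate block, 1561 genes were higher and 1164 lower and the member counts were 5 and 1. The labels number both groups but name no shared litter, and same-numbered arrays' deviations correlated at 0.066, so the numbers were not taken as pairs. The median difference of the members stayed between 0.05 and 0.16. Kng1 passed in all 13 alternatives (1.44 to 1.53, limma adjusted p at most 0.00507), and so did Serping1 (0.36 to 1.13, adjusted p at most 0.0152). The Hpx difference ranged from 0.15 to 1.08, and these calls say nothing of its stability, since it entered through the ETV2 CKO arrays alone. Serpinf2 passed in 4 alternatives and Plg, lower, in 2. Apart from those given, the causes of these shifts were not tested. The lowest signals limit Hp, Hpx and C4b, which lie close to background.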
